A study of Mus musculus with 12 samples.

Results

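The cytochrome P450 genes of families 1 to 4 were followed in 12 mouse livers. Members were all genes of the count table whose mouse symbol reads Cyp, a family number from 1 to 4, 1 subfamily letter and a number, without pseudogenes, and with at least 10 counts in 3 or more libraries. Of the 27179 genes in the table, 85 carried a symbol of these families, and 57 of them were members in 18 subfamilies. A further 17 had too few counts, 6 carried a further letter in the symbol and 5 were pseudogenes. The members that came closest to the count limit were Cyp3a57, with 64 counts over all libraries, and Cyp4f39, with 71, and each reached 10 counts in exactly 3 libraries. Just outside it were Cyp4f18, with 111 counts and 2 such libraries, and Cyp2t4, with 54 counts and 1 such library. The test across all genes kept 56 members, and only Cyp4f39 fell below its filter. Of the 56, Cyp3a57, Cyp3a16, Cyp3a44, Cyp2b13 and Cyp2s1 reached 10 counts in fewer than 3 Vec libraries and were members only together with oncogene libraries, Cyp3a57 through the 3 CD oncogene libraries alone. Differences of these 5 that run toward the oncogene livers were favoured by the count limit and are given as a description.

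Livers came from 4 groups of 3 mice each. Young adult male mice were fed chow (CD) or a low-protein diet (LPD), and were then injected with empty vector (Vec) or with both oncogenes (c-MET/β-catenin), a β-catenin that lacks its N terminus together with the human form of c-MET. Both oncogenes ran from the EF1α promoter and were placed by Sleeping Beauty transposition in the hepatocytes that a hydrodynamic tail vein injection reached, so each oncogene liver is a mixture of cells with and without them. The c-MET/β-catenin livers are called oncogene livers here, so that the groups are CD Vec, CD oncogene, LPD Vec and LPD oncogene. The labels give no strain, and the study's text describes its mice differently in different places, among them as 129/Ola mixed with C57BL/6 and as C57/Bl3. All mice stayed on their diet and were harvested when the CD oncogene mice reached the end point. The count table names the chow columns HPD and the sample titles name the vector controls WT, and the chow and vector reading of the labels was used. Although the labels give hepatocyte as the cell type, the tissue was whole liver.

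P450 enzymes are heme proteins of the endoplasmic reticulum that use electrons passed on by P450 oxidoreductase to put oxygen into drugs, toxins, steroids, fatty acids and bile acids. Families 1 to 3 hold most of the enzymes that clear foreign compounds, and family 4 mainly oxidises the ends of fatty acids and eicosanoids. In mouse liver many of them are zoned along the lobule, several differ between males and females under the control of growth hormone pulses, and others are induced through the receptors Ahr, Car, Pxr and Ppara.

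The members sat in 15 places in the genome (RefSeq, GRCm38.p6), mostly as tandem copies. The largest cluster by number was that of Cyp2c on chromosome 19, with 12 members over 1180.3 kb, followed by 9 members of Cyp2a, Cyp2b, Cyp2f, Cyp2g and Cyp2s on chromosome 7, 7 of Cyp2d on chromosome 15, and 6 each of Cyp3a on chromosome 5 and Cyp4f on chromosome 17. Copies can share reads. For 20 members at least 20% of all 50-base words of their transcripts also occurred in another gene, and the highest share was that of Cyp2c40, at 60.3%, mostly with Cyp2c69. Values of those 20 are uncertain, because the handling of reads that fit several genes is not given in the sources used here.

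The clusters hold neighbours that differed in their response, and their promoters are shown first for that reason. RefSeq windows from 250 bases before to 50 bases after the start were found for 47 of the 57 members. The 4 neighbours Cyp2c69 (chr19:39886720-39887019), Cyp2c40 (chr19:39812765-39813064), Cyp2c68 (chr19:39741052-39741351) and Cyp2c67 (chr19:39648993-39649292), all on the minus strand, differed widely in the CD comparison described below (log2 fold changes of 5.31, 3.17, 0.88 and -0.32). Capitals mark, on either strand, GCGTG (the core bound by Ahr and Arnt), CTTTGA (Tcf/Lef core), AGGTCA (nuclear receptor motif), GTTAAT (Hnf1 motif) and TATAAA (the core promoter box).
Cyp2c69: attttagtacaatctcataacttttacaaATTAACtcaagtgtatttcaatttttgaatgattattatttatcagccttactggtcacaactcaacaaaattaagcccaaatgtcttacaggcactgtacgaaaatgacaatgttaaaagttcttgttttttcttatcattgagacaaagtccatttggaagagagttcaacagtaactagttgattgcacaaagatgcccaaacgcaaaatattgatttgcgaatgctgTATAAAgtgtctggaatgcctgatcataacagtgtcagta
Cyp2c40: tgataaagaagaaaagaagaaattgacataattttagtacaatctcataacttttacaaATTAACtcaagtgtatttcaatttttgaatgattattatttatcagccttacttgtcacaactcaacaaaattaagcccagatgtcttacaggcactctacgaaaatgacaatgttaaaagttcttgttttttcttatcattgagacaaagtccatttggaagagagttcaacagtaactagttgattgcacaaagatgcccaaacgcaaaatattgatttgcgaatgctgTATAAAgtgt
Cyp2c68: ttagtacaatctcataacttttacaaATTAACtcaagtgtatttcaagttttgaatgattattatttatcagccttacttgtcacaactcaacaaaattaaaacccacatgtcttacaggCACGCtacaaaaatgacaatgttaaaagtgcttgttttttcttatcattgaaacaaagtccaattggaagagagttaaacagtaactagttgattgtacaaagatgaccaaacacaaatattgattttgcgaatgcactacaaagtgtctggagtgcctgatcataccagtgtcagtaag
Cyp2c67: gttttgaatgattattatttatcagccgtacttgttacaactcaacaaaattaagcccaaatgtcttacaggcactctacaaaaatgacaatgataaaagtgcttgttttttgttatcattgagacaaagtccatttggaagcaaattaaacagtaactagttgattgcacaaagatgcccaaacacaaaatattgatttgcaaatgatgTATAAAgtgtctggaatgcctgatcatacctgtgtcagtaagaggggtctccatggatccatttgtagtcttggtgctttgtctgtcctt

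Aligned without cost for free ends, the windows of Cyp2c69 and Cyp2c40 were identical in 267 of 270 columns (98.9%), those of Cyp2c69 and Cyp2c68 in 277 of 299 (92.6%) and those of Cyp2c69 and Cyp2c67 in 232 of 250 (92.8%), with gap columns counted as different. TATAAA was present in Cyp2c69, Cyp2c40 and Cyp2c67, and lay downstream of the annotated start in Cyp2c69 and Cyp2c40, while these letters were not in the window of Cyp2c68. The Hnf1 motif, read on the other strand, was in Cyp2c69, Cyp2c40 and Cyp2c68 and not in the window of Cyp2c67.

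On chromosome 5, Cyp3a16 (chr5:145469674-145469973) and Cyp3a44 (chr5:145805825-145806124) share a cluster with Cyp3a11 (chr5:145879805-145880104), all on the minus strand, and the log2 fold changes on CD were 5.82, 4.46 and -1.26. They are shown because both directions occur among close copies, together with Cyp2f2 (chr7:27119705-27120004, plus strand), the member with the most negative log2 fold change.
Cyp3a16: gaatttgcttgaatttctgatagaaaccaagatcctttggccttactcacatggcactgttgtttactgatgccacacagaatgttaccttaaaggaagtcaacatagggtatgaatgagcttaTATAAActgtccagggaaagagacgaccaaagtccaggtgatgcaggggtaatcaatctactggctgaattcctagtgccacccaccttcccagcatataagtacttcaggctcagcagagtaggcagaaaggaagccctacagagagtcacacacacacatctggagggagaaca
Cyp3a44: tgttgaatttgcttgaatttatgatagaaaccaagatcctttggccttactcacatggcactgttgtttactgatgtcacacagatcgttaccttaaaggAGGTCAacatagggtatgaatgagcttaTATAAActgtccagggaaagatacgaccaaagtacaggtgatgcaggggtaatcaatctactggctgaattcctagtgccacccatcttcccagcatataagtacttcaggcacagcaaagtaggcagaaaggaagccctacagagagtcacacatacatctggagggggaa
Cyp3a11: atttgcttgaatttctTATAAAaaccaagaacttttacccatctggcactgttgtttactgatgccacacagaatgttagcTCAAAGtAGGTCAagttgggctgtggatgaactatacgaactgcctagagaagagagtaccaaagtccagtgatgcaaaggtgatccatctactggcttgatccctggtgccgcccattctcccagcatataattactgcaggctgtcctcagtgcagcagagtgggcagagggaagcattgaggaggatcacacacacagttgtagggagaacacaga
Cyp2f2: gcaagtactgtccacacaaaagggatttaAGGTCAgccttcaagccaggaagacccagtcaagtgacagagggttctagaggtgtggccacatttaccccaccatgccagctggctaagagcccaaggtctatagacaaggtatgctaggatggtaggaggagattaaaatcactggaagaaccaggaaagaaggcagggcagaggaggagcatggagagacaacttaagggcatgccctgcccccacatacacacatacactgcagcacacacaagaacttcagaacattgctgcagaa

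The windows of Cyp3a16 and Cyp3a44 were identical in 284 of 298 columns (95.3%), and those of Cyp3a16 and Cyp3a11 in 235 of 308 (76.3%). Cyp3a11 held the Tcf/Lef core and the nuclear receptor motif with 1 base between them, whereas Cyp3a44 held the receptor motif only and Cyp3a16 neither. Of the 52 windows of the 47 members, TATAAA was present in 48.1% (13.6% of all 32851 RefSeq windows), AGGTCA in 30.8% (16.3%), CTTTGA in 28.8% (16%), GCGTG in 17.3% (32.4%) and GTTAAT in 15.4% (7.1%). Some windows belong to copies, so these shares are not independent, and a match describes letters only.

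The libraries held 19476209 to 31990267 counts, and the members took 1.04% to 2.55% of them. TMM factors were 0.864 to 1.12, and CPM denotes counts scaled by total and TMM factor. Ddx3y, a gene of the Y chromosome, was at 74.3 to 95.1 CPM and Xist was at or below 0.422 CPM in all 12 libraries, as in male tissue. Glul, the pericentral glutamine synthetase that β-catenin induces, was at 745 to 994 CPM in CD Vec, 6637 to 8611 in CD oncogene, 952 to 1211 in LPD Vec and 2490 to 4112 in LPD oncogene livers. Transgenic c-MET, being human, could not be read from mouse gene counts. A second header line gives each column a dataset number, and these form 3 runs with gaps between them. CD oncogene libraries 1 and 2 made up the first run, CD Vec libraries 1 and 2 and LPD Vec library 1 the third, and the other 7 libraries, from all 4 groups, the second. For 6 of the 57 members the library numbered 1 was at least 2-fold above both others in each vector group, so results were also computed without those 2 libraries.

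In CD Vec livers, per kilobase of exon, Cyp2e1 was the most abundant member, at a mean of 3712 CPM per kb, ahead of Cyp2f2 at 667, Cyp2d9 at 657, Cyp2d10 at 652 and Cyp2d26 at 496. In CD oncogene livers Cyp2e1 was again first, at 2653 CPM per kb, and was followed by Cyp2a5 at 413, Cyp1a2 at 390 and Cyp2c70 at 309, while Cyp2f2 ranked number 25 of 57 at 31.9. LPD oncogene livers kept the order Cyp2e1, Cyp2d10, Cyp2d9 and Cyp2f2 that LPD Vec livers had, with 2371, 665, 546 and 526 CPM per kb.

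The first comparison asks how the oncogenes altered P450 expression on CD. Of the 56 tested members, 20 fell and 10 rose, 3 of the 10 (Cyp3a57, Cyp3a16 and Cyp3a44) being members only with the oncogene libraries, and 26 did not pass the test (adjusted p under 0.05). The share called was 53.6%, against 35.4% of all 13947 genes tested. For calls in the lower direction it was 35.7% against 16.7% of all genes, and in the higher direction 17.9% against 18.7%. The median log2 fold change of the members was -0.40, against -0.01 over all genes. Because whole liver was sequenced, fewer cells of a type and less RNA per cell cannot be told apart here. The plot of all tested members gives the effect on each diet.

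**Figure D1:**
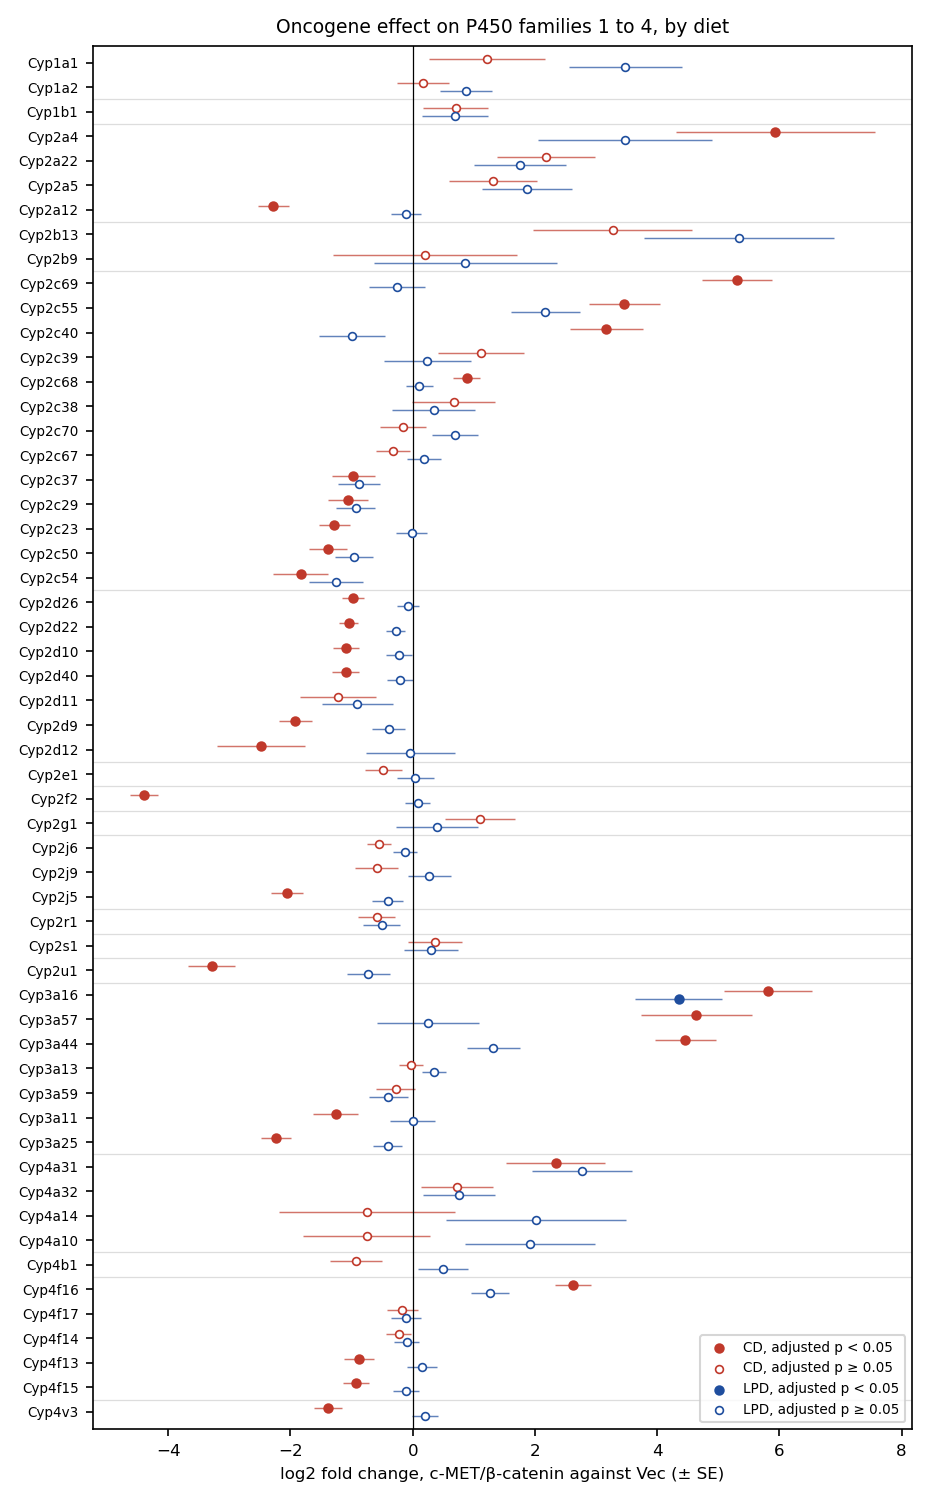
Log2 fold change between oncogene and Vec livers (x axis, with standard errors as bars) for the 56 tested members, grouped by subfamily, on CD (red) and LPD (blue). Filled points passed an adjusted p of 0.05, which 30 members did on CD and 1 (Cyp3a16) on LPD.

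All 30 calls kept their sign in every alternative fit, but not all of them their call. With a term for these dataset runs 13 of the 30 were still called, in the libraries of the second run alone, with 1 CD Vec and 1 CD oncogene library, 13, and with a covariate for the clock genes 15. In that run the single libraries are assumed to vary like those of the other groups. The 10 members called in every fit were Cyp2a12, Cyp2d9, Cyp2f2, Cyp2j5 and Cyp3a25, which fell, and Cyp2c55, Cyp2c69, Cyp3a16, Cyp3a44 and Cyp4f16, which rose. Of these, Cyp3a16 and Cyp3a44 met the count limit only with the oncogene libraries, which no refit changes. Over all genes, 2603 were called higher and 2330 lower on CD. With the term for the runs these were 642 and 303, and with the clock covariate 1146 and 595. The clock covariate was the mean standardised level of Dbp, Nr1d1, Nr1d2, Per3, Ciart, Tef and Bhlhe41 minus that of Arntl, Npas2 and Clock, and it was 1.66, 1.78 and 1.66 in CD Vec livers and -3.19, 0.97 and -3.02 in CD oncogene livers. Its part in the results was not tested beyond that fit.

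By subfamily totals, in which the reads of copies are summed, 6 of 18 fell on CD and the other 12 did not pass. The 6 were Cyp2d, Cyp2f, Cyp2j, Cyp2u, Cyp3a and Cyp4v. The Cyp2d total was at 3470, 5577 and 4162 CPM in CD Vec livers and 1502, 1833 and 1911 CPM in CD oncogene livers, a log2 fold change of -1.33 (SE of 0.20, adjusted p = 0.00046). The Cyp3a total was at 2218, 2442 and 1346 CPM in CD Vec livers and 477, 936 and 893 CPM in CD oncogene livers, a log2 fold change of -1.38 (SE of 0.33, adjusted p = 0.00629). For Cyp2j the sum was 848, 669.8 and 819 CPM in CD Vec livers and 170, 196 and 317 CPM in CD oncogene livers, a log2 fold change of -1.78 (SE of 0.22, adjusted p = 0.000116). In each of these 3 sums the highest oncogene library was below the lowest vector library. The totals of Cyp2c (-0.54, adjusted p = 0.0806) and Cyp4f (-0.43, adjusted p = 0.0692) did not pass. With the term for dataset runs 3 totals were lower, in the second run alone 2. The plot of totals shows the libraries.

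**Figure D2:**
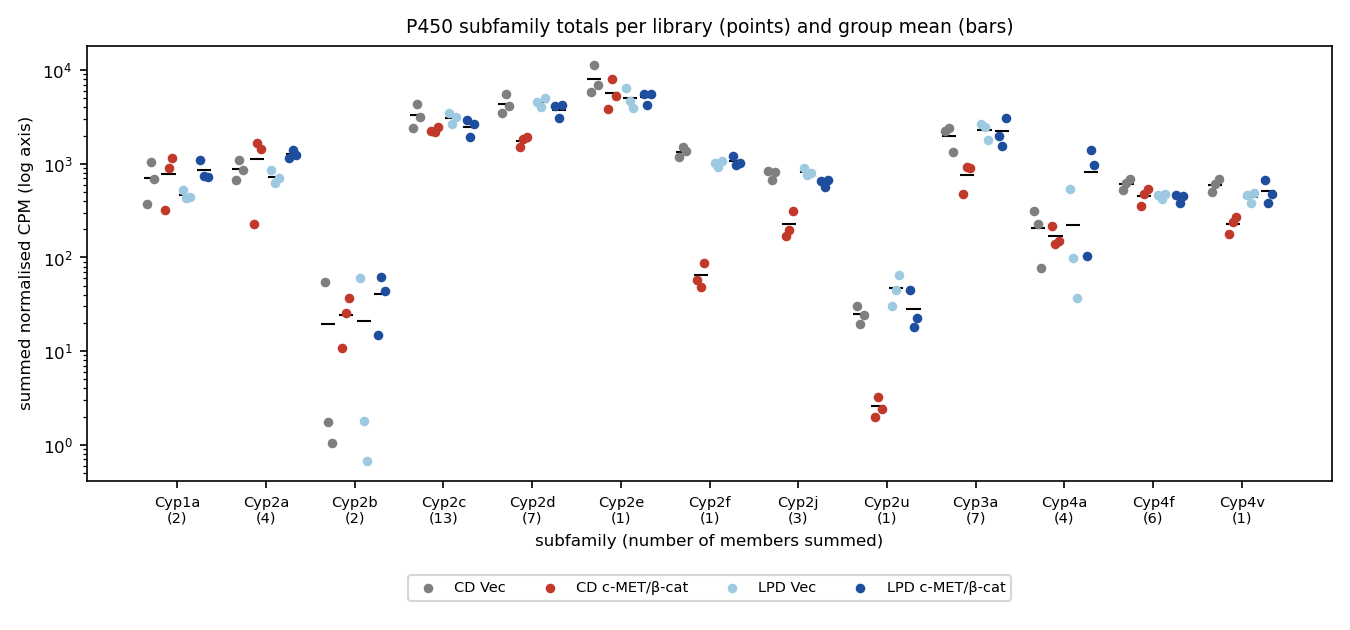
Summed library-scaled counts (CPM, log axis) of the members of 13 subfamilies in each library (points) with the group mean (bars). The CD oncogene libraries lie below all others for Cyp2d, Cyp2f, Cyp2j, Cyp2u, Cyp3a and Cyp4v, while Cyp2b and Cyp4a spread widely within groups.

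Cyp2e1, Cyp1a2 and Cyp2a5, known from pericentral hepatocytes, were not called on CD. Other members also known from there, such as Cyp2c29, Cyp2c50 and Cyp3a11, fell, and no list of pericentral members was counted. Cyp2e1, which oxidises ethanol and acetaminophen, was at 5783, 11274 and 6977 CPM in CD Vec livers and 3865, 7966 and 5348 CPM in CD oncogene livers. The groups overlapped and the log2 fold change was -0.48 (SE of 0.30, adjusted p = 0.238). Cyp1a2, the caffeine-oxidising Ahr target, was at 374, 1043 and 679.6 CPM in CD Vec livers and 318, 892 and 1144 CPM in CD oncogene livers, and its log2 fold change was 0.17 (SE of 0.43, adjusted p = 0.79). Oncogene library 1 was below every vector library and library 3 above them. Cyp2a5, the coumarin hydroxylase, was at 243, 414 and 379 CPM in CD Vec livers and 94.7, 1435 and 1039 CPM in CD oncogene livers. Oncogene libraries 2 and 3 were above and library 1 was below all vector libraries, and the log2 fold change was 1.31 (SE of 0.72, adjusted p = 0.185). Of 14 other pericentral genes listed, 11 rose, Glul by a log2 fold change of 3.10 (SE 0.22), and 1, Nr1i3 (Car), fell, beside 18.7% and 16.7% of all genes. Whether the 3 enzymes differed from those 11 genes was not tested.

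The other members of family 1 were at low levels in CD livers. Cyp1a1, the most strongly Ahr-induced P450, was at 1.02, 0.682 and 0.885 CPM in CD Vec livers and 0.693, 2.86 and 2.58 CPM in CD oncogene livers, and Cyp1b1, which acts mainly outside the liver, at 0.611, 0.682 and 0.625 CPM in CD Vec livers and 1.5, 0.653 and 0.936 CPM in CD oncogene livers. Neither passed on CD (1.22 and 0.70 on the log2 scale).

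Cyp2f2, which oxidises naphthalene and marks periportal hepatocytes, had the most negative log2 fold change of the members. It was at 1177, 1510 and 1367 CPM in CD Vec livers and 57.2, 48.6 and 87.8 CPM in CD oncogene livers. The highest oncogene library was far below the lowest vector library, and the log2 fold change was -4.39 (SE of 0.23, adjusted p = 2e-06). Of the other periportal genes listed, 10 of 12 fell, among them Hal (-3.36) and Cps1 (-3.10), 1 (Cdh1) rose and 1 did not pass, beside 16.7% of all genes called lower and 18.7% higher.

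Cyp2u1, a fatty acid hydroxylase, fell from 30.7, 19.7 and 24.5 CPM in CD Vec livers to 1.99, 3.26 and 2.43 CPM in CD oncogene livers, without overlap, and the log2 fold change was -3.29 (SE of 0.39, adjusted p = 0.000119). In the second run alone its log2 fold change was -3.34 with an adjusted p of 0.0948. Cyp2j5, an arachidonic acid epoxygenase of liver and kidney, was at 754, 588 and 714 CPM in CD Vec livers and 109, 137 and 246 CPM in CD oncogene livers. The groups were apart and the log2 fold change was -2.06 (SE of 0.26, adjusted p = 0.000134). Its neighbours Cyp2j6 (-0.55, adjusted p = 0.0509) and Cyp2j9 (-0.59, adjusted p = 0.208) did not pass. Cyp2r1, a vitamin D hydroxylase, and Cyp2s1 did not pass either.

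Cyp2d was the subfamily with the most members called lower on CD. All 7 members had a negative log2 fold change on CD and 6 were called. Cyp2d9, the male-biased testosterone hydroxylase, was at 1037, 2367 and 1832 CPM in CD Vec livers and 393, 518 and 470 CPM in CD oncogene livers, and its log2 fold change was -1.92 (SE of 0.27, adjusted p = 0.000319). Cyp2d10, the highest of the subfamily per kilobase over all libraries, was at 879.7, 1427 and 917 CPM in CD Vec livers and 419, 566 and 529 CPM in CD oncogene livers (-1.09, SE of 0.21, adjusted p = 0.00204). Every oncogene library was below every vector library for both. Cyp2d26 was at 910.3, 1017 and 741 CPM in CD Vec livers and 390.1, 424 and 535 CPM in CD oncogene livers (-0.98, SE of 0.18, adjusted p = 0.00147), again without overlap. Cyp2d22 (-1.05) and Cyp2d40 (-1.10) fell by similar log2 steps. Cyp2d12 was scarce, at 0.662, 2.9 and 2.55 CPM in CD Vec livers and 0.144, 0.122 and 0.824 CPM in CD oncogene livers, where CD Vec library 1 lay below CD oncogene library 3, and its log2 fold change was -2.49 (SE of 0.72, adjusted p = 0.018). That call was lost in 4 of the 12 fits that left out 1 library, those without CD Vec library 2 or 3 or CD oncogene library 1 or 2. Cyp2d11 (-1.22, adjusted p = 0.145) did not pass. Cyp2d9, Cyp2d10 and Cyp2d11 share at least 20% of their words with copies.

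Cyp2c was divided. Of 13 members 5 fell, 4 rose and 4 did not pass on CD. Those that fell are epoxygenases of arachidonic acid for the most part and included Cyp2c54 (-1.83, SE of 0.45, adjusted p = 0.00845), Cyp2c50 (-1.38), Cyp2c23 (-1.28), Cyp2c29 (-1.06) and Cyp2c37 (-0.97). The calls of Cyp2c29 and Cyp2c37 were lost in 3 and 6 of the 12 fits without 1 library, those of Cyp2c29 without CD Vec library 3 or CD oncogene library 1 or 2. Cyp2c67, the highest Cyp2c member per kilobase over all libraries, was at 277, 682 and 362 CPM in CD Vec livers and 309, 394 and 358 CPM in CD oncogene livers and did not pass (-0.32, adjusted p = 0.415). Nor did Cyp2c70, the enzyme that makes muricholic acid in mice (-0.16, adjusted p = 0.772).

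The largest Cyp2c fold change was in Cyp2c69, which is female-biased. It was at 1.53, 1.48 and 1.87 CPM in CD Vec livers and 102, 24.4 and 68.2 CPM in CD oncogene livers, so that the groups were far apart, and the log2 fold change was 5.31 (SE of 0.57, adjusted p = 7.9e-05). Cyp2c40, its near copy, was at 4.48, 5.4 and 1.04 CPM in CD Vec livers and 40.9, 11.7 and 45.8 CPM in CD oncogene livers, and also rose, by 3.17 (SE of 0.60, adjusted p = 0.00198) on the log2 scale. Reads of these copies may be split between them (54.3% and 60.3% of words shared), and with the clock covariate the change in Cyp2c40 was 1.35 with an adjusted p of 0.209. Cyp2c55 rose by 3.46 (SE 0.58) and Cyp2c68 by 0.88 (SE 0.22) on the log2 scale. Cyp2c55 shares 0.51% of its words with other genes.

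Along the cluster on chromosome 19 the calls did not follow position in 1 block. In gene order, Cyp2c55 rose, Cyp2c29 fell, the next 3 did not pass, Cyp2c68, Cyp2c40 and Cyp2c69 rose in increasing steps, Cyp2c37, Cyp2c54 and Cyp2c50 fell, and Cyp2c70 did not pass. On chromosome 5, in the order of members, Cyp3a57, Cyp3a16 and Cyp3a44 rose, and Cyp3a11 and Cyp3a25 follow and fell. Between Cyp3a16 and Cyp3a44 lie 2 genes that are no members, Cyp3a41b, which did not pass (1.89, adjusted p = 0.157), and Cyp3a41a, which rose (5.25, adjusted p = 0.00392). Only oncogene libraries held 10 or more counts of Cyp3a41a. The plot in gene order shows these turns.

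**Figure D3:**
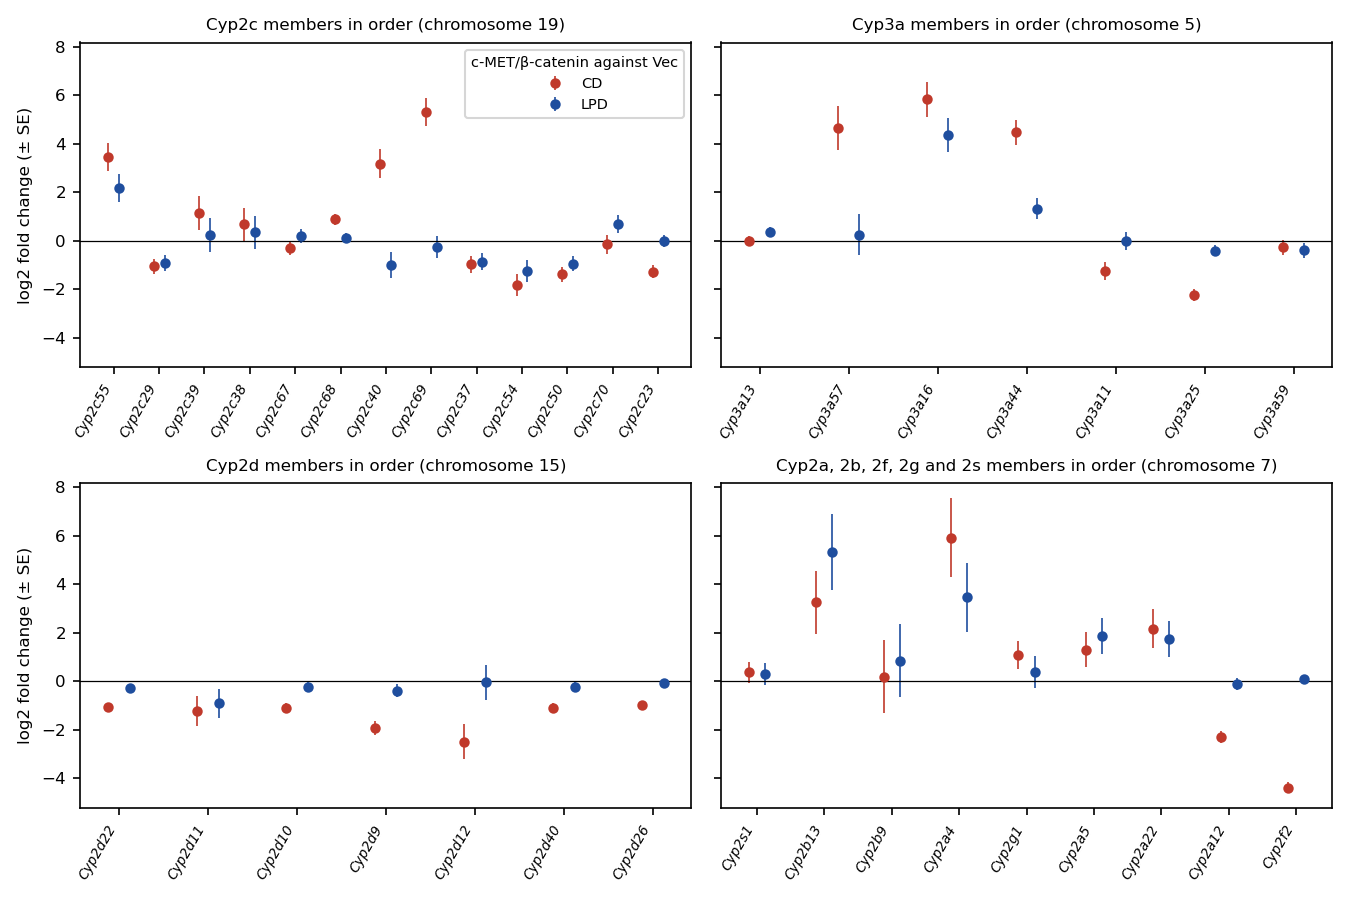
Log2 fold change between oncogene and Vec livers (y axis, with standard errors) on CD (red) and LPD (blue) for members in their order along chromosomes 19, 5, 15 and 7, with equal steps per gene. All 7 Cyp2d members were below 0 on CD, while Cyp2c, Cyp3a and the chromosome 7 cluster held members on both sides.

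Of the 7 Cyp3a members 2 fell on CD, and the 3 that rose were those that met the count limit only with the oncogene libraries. Cyp3a11, the main Pxr-inducible member of adult mouse liver, was at 1502, 1815 and 865 CPM in CD Vec livers and 329.8, 721 and 697 CPM in CD oncogene livers and its log2 fold change was -1.26 (SE of 0.37, adjusted p = 0.0207). All 3 oncogene libraries were below the vector libraries. That call was lost with the term for the runs (-0.51, adjusted p = 0.678) and without CD Vec library 2 or CD oncogene library 1. Cyp3a25 was at 663, 568 and 432 CPM in CD Vec livers and 81.7, 146 and 124 CPM in CD oncogene livers, without overlap, and its log2 fold change was -2.24 (SE of 0.25, adjusted p = 7.55e-05). Cyp3a13 (-0.03) and Cyp3a59 (-0.28) did not pass.

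Cyp3a16, known from fetal and female liver, was at 0.306, 0.398 and 0.104 CPM in CD Vec livers and 7.19, 12.4 and 26.7 CPM in CD oncogene livers. These were 6, 7 and 2 counts in vector and 249, 303 and 713 counts in oncogene libraries, and the log2 fold change was 5.82 (SE of 0.72, adjusted p = 0.000149). Cyp3a44, which is female-specific in adult liver, was at 0.306, 0.0569 and 0.104 CPM in CD Vec livers and 2.89, 4.2 and 3.71 CPM in CD oncogene livers, from 6, 1 and 2 counts and 100, 103 and 99 counts. Its log2 fold change was 4.46 (SE of 0.50, adjusted p = 7.9e-05), and 26.4% of its words are shared, most of all with Cyp3a41a. Cyp3a57 had 0, 1 and 0 counts in vector and 18, 13 and 18 counts in oncogene libraries. Per total counts this was a ratio of 39.2, with an exact 95% counting interval of 6.71 to 1579. The fitted change passed (adjusted p = 0.00219), and it passed in neither fit for the dataset runs (adjusted p = 0.0588 with the term, 0.0966 in the second run).

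In the chromosome 7 cluster, Cyp2a12, a testosterone hydroxylase, was at 416, 682 and 486 CPM in CD Vec livers and 104, 80.2 and 141 CPM in CD oncogene livers, without overlap, and fell with a log2 fold change of -2.28 (SE of 0.25, adjusted p = 7.47e-05). Cyp2a4, a steroid hydroxylase with female bias, was at 5.04, 1.14 and 0.729 CPM in CD Vec livers and 27.9, 131 and 268 CPM in CD oncogene livers, and rose with 5.93 (SE of 1.63, adjusted p = 0.0164). It shares 38% of its words, mainly with Cyp2a5, and its call was lost in 2 of the 12 fits without 1 library, those without CD Vec library 2 or 3. Cyp2a22 (2.18, adjusted p = 0.0526) and Cyp2b13 (3.27, adjusted p = 0.0712) did not pass. Cyp2b9, another gene with female bias, was at 54.5, 1.76 and 1.04 CPM in CD Vec livers and 10.6, 22.2 and 33.2 CPM in CD oncogene livers. Vector library 1 alone was above all the oncogene libraries, and the log2 fold change was 0.20 (SE of 1.5, adjusted p = 0.934). Cyp2g1, an olfactory P450, did not pass (1.10).

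In family 4, Cyp4v3, a fatty acid hydroxylase, was at 499, 606 and 688 CPM in CD Vec livers and 180.1, 239 and 269.9 CPM in CD oncogene livers, without overlap, and fell with a log2 fold change of -1.38 (SE of 0.23, adjusted p = 0.000704). Cyp4f13 (-0.88) and Cyp4f15 (-0.93) fell, Cyp4f16 rose by 2.62 (SE of 0.30, adjusted p = 8.99e-05) on the log2 scale, and Cyp4f14 and Cyp4f17 did not pass. Cyp4f14, which oxidises leukotriene and vitamin E side chains, was at 310, 311 and 441 CPM in CD Vec livers and 231, 301 and 377 CPM in CD oncogene livers (-0.23, SE of 0.20, adjusted p = 0.412). Cyp4b1 was at 15.6, 3.98 and 11.5 CPM in CD Vec livers and 4.07, 5.79 and 6.48 CPM in CD oncogene livers (-0.93, SE of 0.42, adjusted p = 0.104), with overlap. Cyp4a14, a Ppara-induced hydroxylase of fatty acids, was at 132, 31.6 and 10.2 CPM in CD Vec livers and 61.1, 18.6 and 23.8 CPM in CD oncogene livers, with overlap (-0.75, SE of 1.44, adjusted p = 0.718). Cyp4a31 rose by 2.34, adjusted p = 0.0442, a call lost in 6 of the 12 fits without 1 library.

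**Figure D4:**
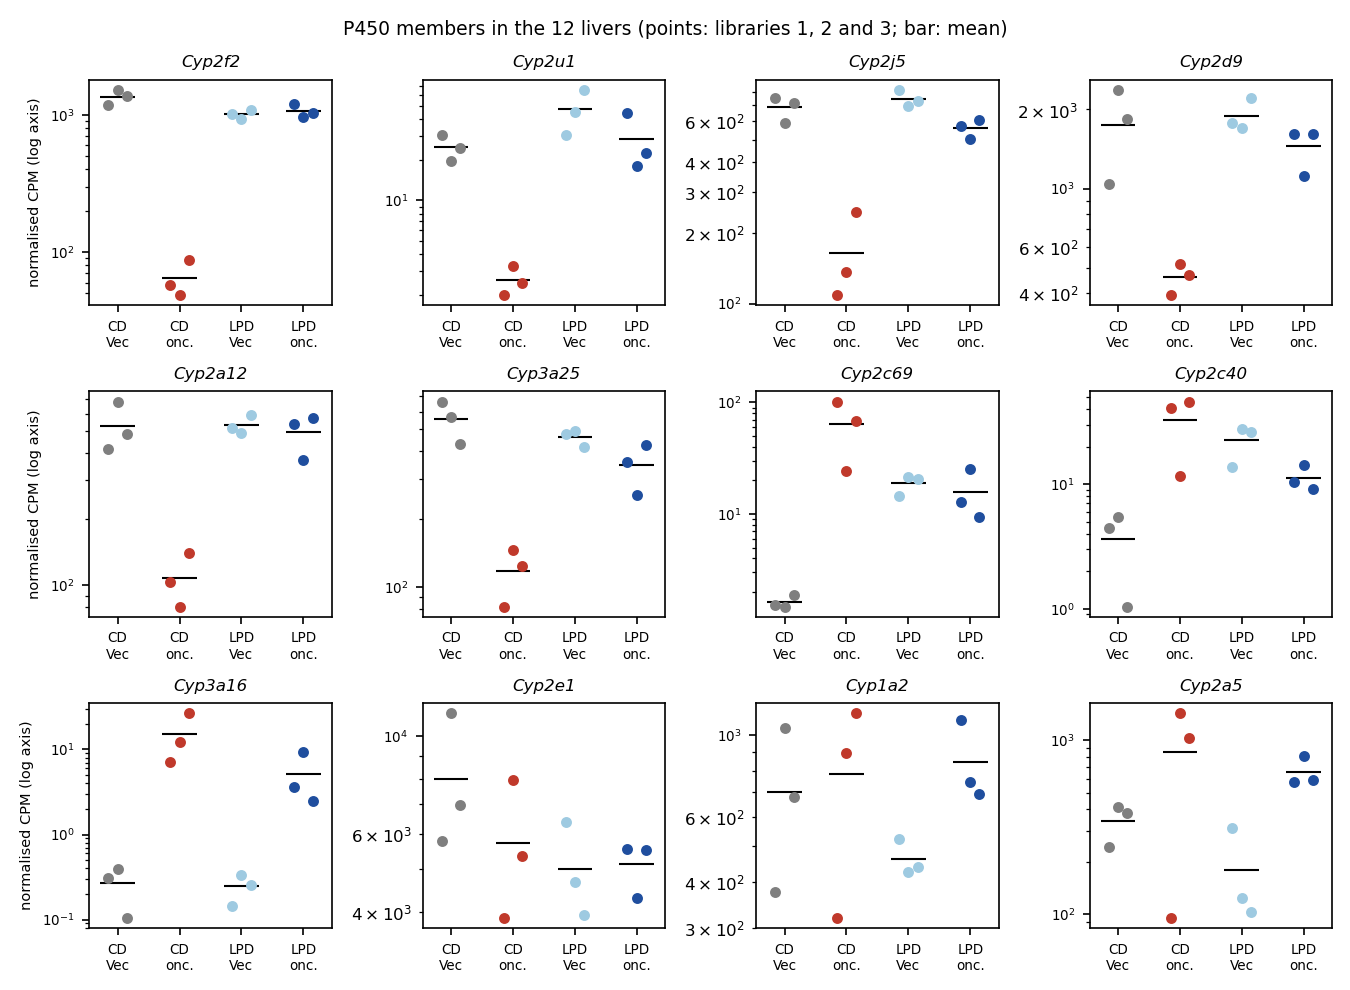
Library-scaled counts (CPM, log axis) of 12 members in the 12 livers, with points for libraries 1, 2 and 3 of each group and bars for means. In the CD oncogene livers Cyp2f2 was at 48.6 to 87.8 CPM and in the other 3 groups at 934 CPM or more, while Cyp2e1 overlapped between Vec and oncogene livers on each diet.

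Of the 6 tested members on the list of female-biased liver genes, 4 rose on CD (Cyp2a4, Cyp2c69, Cyp3a16 and Cyp3a44, the last 2 of them members only with the oncogene libraries) and 2 did not pass, and the 1 member on the male-biased list, Cyp2d9, fell, where 18.7% of all genes were called higher and 16.7% lower. Over the whole lists, members included, 9 of 13 female-biased genes rose and 4 did not pass, with a median of 5.25. Of the male-biased genes 7 of 9 fell and 2 did not pass, with a median of -2.82. Over all genes the median was -0.01. The 9 that rose include Cyp3a16, Cyp3a44 and Cyp3a41a, which reached 10 counts in 3 libraries only with the oncogene libraries. The median of 5.25 is the change of Cyp3a41a, from 3, 0 and 1 counts in CD Vec to 24, 22 and 189 in CD oncogene libraries. The female-biased count and median were favoured in this way and are a description. Among the listed genes outside the members, A1bg rose by 5.26 and Hao2 by 6.51, and the steroid dehydrogenase Hsd3b5 had a log2 fold change of -3.64 on CD. The count limit was not applied to these genes. The filter of the test can be met by oncogene libraries alone, which favours a rise. Levels remained low for some of the female-biased members, with Cyp3a44 at no more than 4.2 CPM.

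On LPD the same injection gave 1 call among the 56 members, Cyp3a16, which met the count limit only in oncogene libraries, or 1.79% against 1.32% of all genes (1.15% called higher). At an unadjusted p under 0.05 there were 14 (25%), against 1545 of all 13947 genes tested. DESeq2 called 4 members, against 389 genes higher and 108 lower among all tested. The median log2 fold change was 0.13, against 0.01 over all genes. Cyp3a16 was at 0.144, 0.338 and 0.256 CPM in LPD Vec livers and 3.67, 9.26 and 2.45 CPM in LPD oncogene livers, without overlap, and its log2 fold change was 4.35 (SE of 0.71, adjusted p = 0.0117). The call was lost when any 1 of the 3 LPD Vec libraries was left out (highest adjusted p = 0.0766).

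The 20 members that fell on CD were not called on LPD. Cyp2f2 was at 1020, 934 and 1076 CPM in LPD Vec livers and 1200, 961 and 1032 CPM in LPD oncogene livers, overlapping, with a log2 fold change of 0.08 (SE of 0.20, adjusted p = 0.951). Cyp2a12 was at 517, 492 and 595 CPM in LPD Vec livers and 543, 369.9 and 575 CPM in LPD oncogene livers (-0.11, SE of 0.24, adjusted p = 0.94). Cyp2d9 was at 1774, 1695 and 2215 CPM in LPD Vec livers and 1614, 1118 and 1618 CPM in LPD oncogene livers (-0.39, SE of 0.27, adjusted p = 0.692). The Cyp2a12 libraries overlapped, whereas the Cyp2d9 oncogene libraries were all below the vector libraries. Cyp2j5 was at 812, 695 and 731 CPM in LPD Vec livers and 573, 501 and 609 CPM in LPD oncogene livers (-0.41, SE of 0.25, adjusted p = 0.619), also without overlap. Cyp2u1 was at 30.5, 45.4 and 65.3 CPM in LPD Vec livers and 44.6, 18 and 22.5 CPM in LPD oncogene livers (-0.73, SE of 0.35, adjusted p = 0.473), and Cyp3a25 was at 478, 491 and 417 CPM in LPD Vec livers and 359, 257 and 428 CPM in LPD oncogene livers (-0.41, SE of 0.24, adjusted p = 0.599), both with overlap.

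Cyp2a5, Cyp1a2 and Cyp2e1 did not pass on LPD. Cyp2a5 was at 315, 124 and 102 CPM in LPD Vec livers and 578, 810.3 and 594 CPM in LPD oncogene livers (1.87, SE of 0.74, adjusted p = 0.347) and Cyp1a2 at 522, 425 and 438 CPM in LPD Vec livers and 1098, 744 and 692 CPM in LPD oncogene livers (0.87, SE of 0.43, adjusted p = 0.499). In both genes all 3 oncogene libraries were above all 3 vector libraries. Cyp2e1 was at 6375, 4662 and 3931 CPM in LPD Vec livers and 5555, 4284 and 5513 CPM in LPD oncogene livers (0.04, SE of 0.30, adjusted p = 0.986), overlapping. Cyp1a1 was at 1.44, 0.845 and 0.616 CPM in LPD Vec livers and 3.13, 2.07 and 27.3 CPM in LPD oncogene livers, all above the vector libraries and library 3 far above the rest, and the log2 fold change was 3.48 (SE of 0.93, adjusted p = 0.114). Cyp1b1 was at 0.624, 0.465 and 0.564 CPM in LPD Vec livers and 0.44, 0.456 and 1.79 CPM in LPD oncogene livers (0.69, SE of 0.54, adjusted p = 0.748).

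Cyp2a4, Cyp2b9, Cyp3a44, Cyp2c69 and Cyp2c40 did not pass on LPD. Cyp2a4 was at 24.5, 1.18 and 0 CPM in LPD Vec livers and 31.4, 204 and 48 CPM in LPD oncogene livers (3.47, SE of 1.42, adjusted p = 0.38). Cyp2b9 was at 59.9, 1.77 and 0.667 CPM in LPD Vec livers and 14, 58.4 and 40.2 CPM in LPD oncogene livers, where LPD Vec library 1 exceeded all 3 oncogene libraries (0.86, SE of 1.5, adjusted p = 0.921). Cyp3a44 was at 0.576, 0.253 and 0.718 CPM in LPD Vec livers and 1.42, 1.44 and 0.962 CPM in LPD oncogene livers, without overlap (1.32, SE of 0.43, adjusted p = 0.22). Cyp2c69 was at 14.4, 21.6 and 20.7 CPM in LPD Vec livers and 12.8, 25.2 and 9.31 CPM in LPD oncogene livers, overlapping (-0.26, SE of 0.46, adjusted p = 0.923), and Cyp2c40 was at 13.8, 27.7 and 26.2 CPM in LPD Vec livers and 10.3, 14.3 and 9.05 CPM in LPD oncogene livers (-1.0, SE of 0.54, adjusted p = 0.558). Among the 13 tested genes of the female-biased list 3 rose on LPD (Cyp3a16, A1bg and Hao2), beside 1.15% of all genes. Cyp3a16 met the count limit only with oncogene libraries, and the limit was not applied to A1bg and Hao2, so this count is a description. The 9 male-biased genes did not pass, where 0.165% of all genes were called lower.

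The other members described on CD had these values on LPD. Cyp3a11 was at 2132, 1951 and 1360 CPM in LPD Vec livers and 1597, 1237 and 2604 CPM in LPD oncogene livers and Cyp4v3 at 462, 385 and 493 CPM in LPD Vec livers and 678, 386 and 472 CPM in LPD oncogene livers. Cyp2d10 was at 1389, 1065 and 1373 CPM in LPD Vec livers and 1179, 929.5 and 1181 CPM in LPD oncogene livers and Cyp2d26 at 801, 745 and 712 CPM in LPD Vec livers and 696, 587 and 849 CPM in LPD oncogene livers. In each of these 4 genes the groups overlapped. Cyp2c67 was at 473, 559.6 and 672 CPM in LPD Vec livers and 776, 539 and 635 CPM in LPD oncogene livers and Cyp4f14 at 271, 243 and 313 CPM in LPD Vec livers and 293, 233 and 246 CPM in LPD oncogene livers. Cyp4b1 was at 11, 8.15 and 5.13 CPM in LPD Vec livers and 10.5, 9.96 and 13.9 CPM in LPD oncogene livers and Cyp2g1 at 0.72, 0.634 and 0.308 CPM in LPD Vec livers and 0.831, 0.597 and 0.787 CPM in LPD oncogene livers. Cyp2d12 was at 0.432, 0.718 and 0.718 CPM in LPD Vec livers and 1.03, 0.386 and 0.437 CPM in LPD oncogene livers. The groups overlapped in these 5 as well, and none of the 9 passed.

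The Ppara-induced Cyp4a members varied widely between libraries of a group. Cyp4a14 was at 349.5, 23.6 and 4.21 CPM in LPD Vec livers and 33.5, 909 and 591 CPM in LPD oncogene livers (2.02, SE of 1.47, adjusted p = 0.723). LPD Vec library 1 and LPD oncogene libraries 2 and 3 were high, and the other 3 were at 33.5 CPM or less. Cyp4a10 showed the same libraries high, at 148, 22.4 and 5.54 CPM in LPD Vec livers and 32.5, 361 and 272 CPM in LPD oncogene livers. CD Vec library 1 was also the highest of its group for Cyp4a14, and it stood apart, together with LPD Vec library 1, in Cyp2b9, Cyp2b13, Cyp2a4, Cyp2c38 and Cyp2c39. Without those 2 libraries 15 members were higher and 19 lower on CD, against 10 and 20, and 29 of the 30 calls were shared, all but Cyp3a11.

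Between diets, Vec livers gave 1 call among 56 members (1.79% against 0.308% of all genes called and 0.186% called higher). With an unadjusted p under 0.05 there were 9 (16.1%), against 1377 of all 13947 genes tested. DESeq2 called 3 members higher and 1 lower, against 143 and 196 of all genes. The 1 gene called by edgeR was Cyp2c69, higher on LPD by a log2 fold change of 3.53 (SE of 0.55, adjusted p = 0.0262). Its 3 CD Vec libraries were at 1.48 to 1.87 CPM and its 3 LPD Vec libraries at 14.4 to 21.6, without overlap. The call was lost in 4 of the 12 fits without 1 library, those without CD Vec library 2 or 3 or LPD Vec library 2 or 3. It was also lost with no filter (adjusted p = 0.0547), the term for dataset runs (0.093), the second run alone (0.244), a replicate block (0.0644) and without the vector libraries numbered 1 (0.0829), with log2 fold changes of 3.37 to 3.65. The libraries of 8 other members also did not overlap between these groups, and none of the 8 passed. How many of all genes separate in this way was not counted, so the 8 are given as a description only. Cyp2c40 (2.63, SE of 0.59, adjusted p = 0.0878) and Cyp2d40 (0.90, SE of 0.21, adjusted p = 0.0956) were above on LPD, and Cyp2c70 (-1.63, SE of 0.39, adjusted p = 0.0957), Cyp4f15, Cyp2g1, Cyp2f2, Cyp4v3 and Cyp2d22 below. The median over members was -0.07, against -0.03.

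In oncogene livers, 14 members were higher and 5 lower on LPD than on CD, together 33.9% against 20% of all genes. The higher calls were 25% of the members, against 8.66% of all genes, the lower calls 8.93%, against 11.3%, and the median was 0.39, against -0.01. This comparison uses the same CD oncogene livers as the CD comparison, so the overlap of their calls is no separate finding. Cyp2f2 was at 57.2, 48.6 and 87.8 CPM on CD and 1200, 961 and 1032 CPM on LPD, a log2 fold change of 4.04 (SE of 0.23, adjusted p = 8.58e-06). Cyp2u1 differed by 3.47 (SE of 0.40, adjusted p = 0.000436) and Cyp2a12 by 2.19 (SE of 0.25, adjusted p = 0.000428). In these 3 genes the libraries of the diets did not overlap. The further 11 were Cyp2c23, Cyp2c67, Cyp2d9, Cyp2d10, Cyp2d22, Cyp2d26, Cyp2d40, Cyp2j5, Cyp3a11, Cyp3a25 and Cyp4v3, with log2 fold changes from 0.52 for Cyp2d22 to 1.79 for Cyp2d40. The calls of Cyp2c67, Cyp2c23, Cyp2d22 and Cyp2d26 were lost in 10, 9, 6 and 4 of the 12 fits without 1 library.

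The 5 lower on LPD were Cyp2c69 (-2.03, SE of 0.47, adjusted p = 0.0116), Cyp2g1 (-2.09, SE of 0.61, adjusted p = 0.0308), Cyp3a57 (-2.32, SE of 0.64, adjusted p = 0.0246), Cyp4f16 (-1.82, SE of 0.29, adjusted p = 0.00175) and Cyp3a44 (-1.49, SE of 0.38, adjusted p = 0.0179). Cyp2g1 was at 1.48, 1.19 and 1.72 CPM in CD Vec livers, 0.635, 3.06 and 5.8 CPM in CD and 0.831, 0.597 and 0.787 CPM in LPD oncogene livers, and CD oncogene library 1 lay within the LPD range, unlike libraries 2 and 3. The Cyp2c69 libraries of the 2 diets overlapped as well. Cyp3a57 had 18, 13 and 18 counts on CD and 3, 4 and 1 on LPD, where the vector libraries had 2, 4 and 0, and the 3 CD libraries are those that made it a member. The calls of Cyp2g1, Cyp3a57 and Cyp3a44 were lost in 5, 4 and 2 of the 12 fits without 1 library. Of the 19 calls 7 were shared with the fit that has a term for the dataset runs, 9 with the second run alone, and 5 held in every fit (Cyp2a12, Cyp2d40, Cyp2f2, Cyp2j5 and Cyp4f16).

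By totals, Cyp2d, Cyp2f, Cyp2j, Cyp2u, Cyp3a and Cyp4v were higher on LPD in oncogene livers and Cyp2g was lower. The Cyp2d total was at 1502, 1833 and 1911 CPM on CD and 4106, 3077 and 4196 CPM on LPD (1.12, SE of 0.20, adjusted p = 0.00337). For Cyp3a the sums were 477, 936 and 893 CPM on CD and 2005, 1551 and 3088 CPM on LPD (1.53, SE of 0.33, adjusted p = 0.00764). Neither pair of groups overlapped.

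The test of the difference between the 2 oncogene effects, LPD minus CD, called 11 of 56 members (19.6% against 8.91% of all genes). In 8 the effect on LPD was above that on CD (14.3% against 4.49%), and in 3 below (5.36% against 4.42%). The median difference was 0.52, against 0.02 over all genes. The 8 were Cyp2f2 (4.46, SE of 0.30, adjusted p = 6.04e-05), Cyp2u1 (2.56, SE of 0.51, adjusted p = 0.0147), Cyp2a12 (2.17, SE of 0.35, adjusted p = 0.00564), Cyp3a25 (1.83, SE of 0.34, adjusted p = 0.0107), Cyp2j5 (1.65, SE of 0.35, adjusted p = 0.0176), Cyp4v3 (1.58, SE of 0.32, adjusted p = 0.0137), Cyp2d9 (1.54, SE of 0.38, adjusted p = 0.029) and Cyp2d26 (0.90, SE of 0.25, adjusted p = 0.0478). The 3 were Cyp2c69 (-5.56, SE of 0.72, adjusted p = 0.00321), Cyp2c40 (-4.18, SE of 0.81, adjusted p = 0.0133) and Cyp3a44 (-3.14, SE of 0.68, adjusted p = 0.0188). For Cyp2c69 the LPD Vec livers already held more than the CD Vec livers, as given above, so both vector and oncogene groups enter that difference. Of the 11, 2 were called with the term for the dataset runs, 2 in the second run alone and 3 with the clock covariate, and Cyp2f2 was the 1 called in every fit. All 11 kept their sign. The calls of Cyp2d26, Cyp2d9, Cyp2j5 and Cyp3a44 were lost in 9, 7, 1 and 1 of the 12 fits without 1 library, Cyp2j5 without LPD Vec library 2 and Cyp3a44 without LPD Vec library 3.

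Genes that regulate or serve P450 enzymes were described from lists. Of 13 nuclear receptors and sensors 2 rose and 5 fell on CD, where 18.7% of all genes were called higher and 16.7% lower. Ahr rose by 1.77 and Ppara had -0.67 on the log2 scale, while the Ahr targets Cyp1a1 and Cyp1a2 did not pass. Of 15 hepatocyte transcription factors 5 fell, among them Onecut1 (-2.71) and Cebpa (-1.16), and Hnf4a (-0.09, adjusted p = 0.735) did not pass. Among 8 genes of growth hormone signalling and sex bias, the receptor Ghr (-1.65) and Igf1 (-1.17) fell, Stat5a and Cux2 (2.43) rose and 4 did not pass. Over these 3 lists 1 gene was called on LPD, Bcl6 (-2.15 on the log2 scale), beside 1.32% of all genes.

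Redox partners and heme genes were called in both directions, 3 of 7 and 4 of 12 on CD, where 35.4% of all genes were called. P450 oxidoreductase, Por, had a log2 fold change of -0.01 on CD (SE 0.39, adjusted p = 0.989), and of 7 redox partners 1 rose (Cyb5r1) and 2 fell (Pgrmc1 and Pgrmc2). Of 12 genes of heme synthesis and breakdown, Alas1, the first step of heme synthesis, had -2.15 (SE 0.53) and Cpox -0.39, both called lower, and Hmox1 (1.83) and Blvrb (0.97) rose. For Ppara targets other than P450, 6 of 14 fell and 2 rose on CD, and 3 of 10 Car and Pxr targets rose and 1 fell. Of 3 tested Ahr targets other than P450 Nqo1 rose and Ugt1a6a fell, and of 13 clock genes 2 rose and 5 fell.

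Lists of proliferation genes and of cell type markers differed in how many genes were called on CD, where 35.4% of all genes were. All 8 proliferation genes rose, and their summed level was 5.91 to 28 CPM in CD Vec, 151 to 214 in CD oncogene, 14.4 to 15.5 in LPD Vec and 24.7 to 59.5 in LPD oncogene livers. Of 10 stellate cell and fibroblast markers 6 rose and 2 fell (sums of 240 to 326, 280 to 732, 236 to 296 and 256 to 344 CPM in the same order). Of 6 tested cholangiocyte markers 2 rose (47.8 to 65.6, 141 to 403, 71.3 to 82.2 and 64.1 to 69.6 CPM), as did 3 of 4 neutrophil markers (3.72 to 5.47 CPM in CD Vec and 10 to 19.8 in CD oncogene livers) and 4 of 5 erythroid markers (169 to 221 and 79.4 to 278 CPM). The erythroid sum was mostly that of Alas2, the 1 marker of the 5 that did not pass, with means of 191 and 109 CPM. Of 8 Kupffer cell markers 2 rose, of 8 T and NK cell markers 2 rose and 1 fell, of 8 endothelial markers 1 fell, and the 6 B and plasma cell markers did not pass. Of 9 hepatocyte markers 2 rose and 3 fell, and their sum was 135949 to 138528 CPM in CD Vec and 132487 to 158963 CPM in CD oncogene livers. No listed marker had 0 counts in all libraries. The part of these cells in the P450 values was not tested.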

How the data were processed

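RNA from 12 mouse livers, 3 per group, was sequenced, and the methods name both single reads of 50 bases and a paired-end module. According to the methods, the authors aligned reads to mm10 with HISAT2 and counted them with featureCounts, and they deposited whole-number read counts per Entrez gene with no normalisation. Strand setting and the handling of multimapping reads are not given in the sources used here. The labels name rRNA depletion and the methods selection of mRNA. Symbols came from RefSeq for 25275 and from GENCODE for 18 of the 27179 genes, and 1886 had none. Groups were taken from the labels. Nothing states that a replicate number marks a shared litter or day, and p-values measure the spread between these livers.

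Counts were fitted over all genes with edgeR 4.0.16 in R 4.3.3 (quasi-likelihood test with robust fitting, TMM factors, filterByExpr, 1 coefficient per group, all 12 libraries), which kept 13947 genes, at a biological coefficient of variation of 23.2%. P-values were adjusted over all tested genes by Benjamini-Hochberg, and a call is an adjusted p under 0.05. Subfamily totals replaced their members in a second fit. CPM are counts scaled by the library total and TMM factor, and CPM per kb divides them by exon length. The fits were tested on simulated data. The script-made interval of a count ratio is exact at 95% and covers counting error only.

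Values in every library are given for the highest member per kb of each subfamily with 2 or more tested members, for Cyp1a1, Cyp1b1, Cyp2e1, Cyp2f2, Cyp4b1 and Cyp4v3, and for the 3 largest called changes per direction and comparison. The members, lists and tests were chosen with earlier results of these data known. Alternatives were total counts, no filter, DESeq2 1.42.0, the 2 groups alone, a replicate block, a term for the dataset runs, the second run alone, a clock covariate and each library left out. Leaving out the vector libraries numbered 1 was chosen after seeing the data. Promoters were aligned with Biopython 1.88. The planned protein alignment was not run, since protein sequences were not used here.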

Additional observations from a re-analysis of the deposited data

Results flagged for a closer look

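For 11 members the effect of the oncogenes differed between the diets by the edgeR test of the difference itself (LPD effect minus CD effect, log2 scale). In 8 it was above 0, namely 4.46 for Cyp2f2, 2.56 for Cyp2u1, 2.17 for Cyp2a12, 1.83 for Cyp3a25, 1.65 for Cyp2j5, 1.58 for Cyp4v3, 1.54 for Cyp2d9 and 0.90 for Cyp2d26. In 3 it was below 0, namely -5.56 for Cyp2c69, -4.18 for Cyp2c40 and -3.14 for Cyp3a44. Cyp2c69 and Cyp2c40 share 54.3% and 60.3% of their 50-base words with other genes. Of the 11 calls 2 were kept with the term for the dataset runs, 2 in the second run alone and 3 with the clock covariate, and Cyp2f2 was the 1 gene called in every fit. Cyp2d26 and Cyp2d9 lost their call in 9 and 7 of the 12 fits without 1 library, and Cyp2j5 and Cyp3a44 in 1 each. Cyp3a44 met the count limit of the members only with oncogene libraries. Beyond the check of the vector libraries numbered 1 and the fits without 1 library, no search for outlying libraries was made within groups of 3.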

How the results depend on the processing

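No value reversed. With the term for the runs, 6 members were lower on CD (20 in the fit of the report), 0 higher on LPD between Vec livers (1), 5 higher (14) and 2 lower (5) on LPD between oncogene livers, and 1 above (8) and 1 below (3) in the difference of effects. Of the totals, 3 were lower on CD (6), 3 higher between oncogene livers (6) and 1 above in the difference (5). In the second run alone, 6 members were lower on CD, 2 higher (1) and 1 lower (0) on LPD, 2 lower between Vec livers (0), 7 higher between oncogene livers and 1 above in the difference, and of the totals 2 were lower on CD, 1 higher on LPD (0), 3 higher between oncogene livers and 1 above in the difference. With the clock covariate, 9 members were lower on CD, 9 higher and 3 lower between oncogene livers, 2 above and 1 below in the difference, and of the totals 0 were lower between oncogene livers (1) and 1 was above in the difference. CD oncogene libraries 1 and 2 are the whole first run, so run and group can be told apart only through the remaining libraries. Calls over all 13947 genes fell as well. Lower calls on CD went from 2330 to 303 with the term for the runs and to 595 with the clock covariate. Higher calls between oncogene livers went from 1208 to 177 and 628, and calls above in the difference from 626 to 32 and 85.

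DESeq2 gave 4 members higher on LPD, 3 higher and 1 lower between Vec livers and 8 lower between oncogene livers. In the difference it gave 5 below and 12 above. Over all genes it also called more, with 389 higher on LPD (161) and 1902 lower between oncogene livers (1576). In the difference it called 1078 of all genes below (617) and 1005 above (626). With the 2 groups alone, 5 members and 2 totals were higher on LPD and 0 totals lower between oncogene livers. Without a filter, 0 members were higher between Vec livers. Without the vector libraries numbered 1 (chosen after seeing the data), 0 members were higher between Vec livers, 15 higher on CD (10), 1 total was higher on CD and 1 on LPD, 0 lower between oncogene livers and 2 above in the difference.

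Of 18 same-numbered pairs of libraries from different groups, 2 had a correlation of deviations above 0.1 (range -0.183 to 0.167). Differently numbered pairs ranged from -0.221 to 0.245. With 3 libraries per group these values cannot show whether a replicate number marks a shared litter or day. With the replicate number as a block, 9 members were higher and 20 lower on CD, 1 higher on LPD, 0 higher between Vec livers (Cyp2c69, adjusted p = 0.0644), 11 higher and 4 lower between oncogene livers, 7 above and 3 below in the difference, and 0 totals were lower between oncogene livers.

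With 1 library left out, members higher and lower numbered 8 to 14 and 17 to 21 on CD, and 0 to 3 and 0 to 0 on LPD. They numbered 0 to 2 and 0 to 1 between Vec livers, and 10 to 16 and 2 to 7 between oncogene livers. In the difference they numbered 5 to 11 and 3 to 4. Over all genes the calls numbered 2305 to 2595 and 1946 to 2271 on CD. Between oncogene livers they numbered 693 to 1644 and 892 to 2016. Totals ranged from 0 to 2 higher and 6 to 8 lower on CD, 6 to 7 higher and 0 to 1 lower between oncogene livers and 3 to 5 above in the difference. The 140 results of single named members include those not called in the fit of the report, which had no call to lose. Among the called ones, the term for the runs lost 26 calls and the clock covariate 19. Members with few counts, such as Cyp3a57 and Cyp2d12, are limited by depth.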

Other observations

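P450 genes outside the members were also called on CD. Of 12 tested genes of families above 4, which act mainly on sterols, bile acids and retinoids, 7 fell and 2 rose, beside 16.7% and 18.7% of all genes. Cyp8b1, the enzyme that sets cholic acid synthesis, changed by -3.01 on the log2 scale (SE 0.27, adjusted p = 2.71e-05), and Cyp7b1, the oxysterol hydroxylase, had -2.48 (SE 0.75, adjusted p = 0.0245). Cyp46a1 had -5.04 (SE 0.80, adjusted p = 0.000635). Cyp51, of cholesterol synthesis, rose by 1.44 (SE 0.28, adjusted p = 0.00183) and Cyp39a1 by 1.89 (SE 0.42, adjusted p = 0.00537). Cyp7a1, the first step of bile acid synthesis, did not pass (0.47, adjusted p = 0.438). On LPD, where 1.32% of all genes were called, 1 of the 12 was, Cyp8b1, at -1.48 (SE 0.26, adjusted p = 0.0153).

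Some copies of families 2 to 4 were left out by symbol or as pseudogenes and carried signal. The male-biased Cyp4a12a averaged 351 CPM in CD Vec, 27.8 in CD oncogene, 202 in LPD Vec and 217 in LPD oncogene livers, and it changed on CD by -3.66 on the log2 scale (SE 0.26, adjusted p = 8.52e-06). Its copy Cyp4a12b had -3.27 (SE 0.62, adjusted p = 0.00198). The female-biased Cyp3a41a averaged 0.0683 CPM in CD Vec and 2.89 CPM in CD oncogene livers (5.25, SE 1.13, adjusted p = 0.00392). It reached 10 counts only in oncogene libraries, so its rise was favoured by the filter and is a description. The annotated pseudogene Cyp2d13 averaged 457 CPM in CD Vec and 107 CPM in CD oncogene livers (-2.10, SE 0.22, adjusted p = 5.65e-05).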
